A study of Mus musculus with 2 samples.

Results

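Cycling monocytes and macrophages were taken from the droplet libraries of dystrophic hind limb muscle by the UMIs of each barcode, a UMI being a tag that marks 1 captured RNA molecule. A cell was a member if it held at least 500 genes, at least 2 of the 5 monocyte and macrophage (MO/MP) genes Csf1r, Adgre1, Fcgr1, C3ar1 and Cd68, no UMI of Pdgfra, Cdh5, Cd3e or Cd79a, no UMI of the granule genes Elane, Mpo, Prtn3 or Ctsg, and at least 3 of the 6 cell cycle genes Mki67, Top2a, Birc5, Cdk1, Ccna2 and Ube2c. This gave 127 members among 8010 barcodes, 85 of them in the Ctrl library and 42 in the dKO library. The members were thus chosen by their measured cell cycle and MO/MP genes, whose levels are given below as a description only.

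The study asked how loss of the transcription factor YY1 in muscle stem cells (MuSCs) alters the cells around them in mdx mice, a strain without dystrophin used to model Duchenne muscular dystrophy. Ctrl mice were Pax7CreERT2/R26YFP; Yy1+/+; mdx, and dKO mice were Pax7CreERT2/R26YFP; Yy1 f/f; mdx. Both carried the mdx mutation, the tamoxifen-dependent Cre and the YFP reporter, and according to the study's methods both were injected with tamoxifen while young, although the labels list no treatment for Ctrl, and the muscle was taken a month later. Pax7 drives the Cre in MuSCs, so the MO/MPs described here were not the cells targeted for deletion. Live propidium iodide-negative mononuclear cells were sorted after red cell lysis, with the mice of a genotype pooled into 1 library. Each group was therefore 1 sample, no comparison between Ctrl and dKO has a replicate, no p-value is given, and every interval below is a 95% interval for counting error only.

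Macrophages of muscle come from blood monocytes that enter the tissue and from resident cells that can divide in place, and growth through the receptor Csf1r sustains them. A dividing cell licenses its origins with MCM proteins in G1, copies its DNA and makes histones in S phase, and then raises the cyclin B kinases, kinetochore proteins, kinesins and the anaphase-promoting complex for mitosis. In dystrophic muscle, macrophages clear dead fibres, present antigen and signal to MuSCs and to fibro-adipogenic progenitors (FAPs).

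The libraries held 4527 barcodes and 45556596 UMIs in Ctrl, and 3483 barcodes and 33815155 UMIs in dKO. The steps of the rule left 4335, 1571, 1426 and 1344 Ctrl cells and 3329, 1214, 1098 and 1070 dKO cells, in the order 500 genes, MO/MP genes, lineage genes and granule genes. The libraries shared 7 barcodes, of which 0 belonged to a member. The matrices held 0 mitochondrial genes, so cell quality could not be read from them. Members were deeper than the MO/MPs that passed the rule with none of the 6 cell cycle genes, called other MO/MPs here. Their median was 18060 UMIs in Ctrl and 13782 in dKO, against 7632 and 7136.5 in other MO/MPs, a ratio of 2.37 and 1.93. Members ranged from 4258 to 63392 UMIs in Ctrl and from 3111 to 52694 in dKO.

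The label was checked with genes in and outside the rule. Csf1r, the receptor for colony-stimulating factor 1 and a gene of the rule, stood at 294 UMIs per 1000000 (CPM, counts scaled to the UMIs of the cells summed) in Ctrl members and 278 in dKO members, lower than the 508 and 444 CPM of other MO/MPs. Nusap1, a spindle protein and the marker that the rule did not use, was at 125 and 146 CPM, against 0.465 and 1.04 CPM in other MO/MPs. A minority of members went against the label. With limits set after seeing the data, 7 Ctrl members and 4 dKO members held over 700 CPM of the MuSC and myofibre list or over 2000 CPM of the FAP, mural or neutrophil lineage list. These cells held 18.1% of the Ctrl members' UMIs and 7.51% of the dKO members' UMIs. In Ctrl, 5 of them were rich in myogenic genes, with 0 to 45 UMIs of the myogenic factor Myod1, 21 to 107 of the muscle filament gene Des and 7 to 35 of the acetylcholine receptor gene Chrna1. Of those 5, all but 1 had at most 2 UMIs in all of the leukocyte genes Tyrobp, Fcer1g and Laptm5. A sixth Ctrl cell had 159 UMIs of Col1a1 and 87 of Dcn, the collagen and decorin genes of FAPs, and 1 leukocyte UMI. The seventh had mural genes at 2183 CPM beside 57 leukocyte UMIs.

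In dKO, a single cell had neutrophil lineage genes at 414249 CPM, with 715 UMIs of Ngp. Another had that list at 16466 CPM beside myogenic genes at 1838 CPM and 86 leukocyte UMIs. The remaining pair had mural genes at 12034 and 10391 CPM, with 15 leukocyte UMIs each and 3 of the 6 cell cycle genes. The other 78 Ctrl members held 14 to 325 leukocyte UMIs (median 70) and the other 38 dKO members 5 to 189 (median 59.5). None of the other members fell to 2 or fewer. T/NK, B and mast or erythroid lists had 4.43, 4.99 and 1.66 CPM in Ctrl members and 17.5, 0 and 2.91 CPM in dKO members. The T/NK list was at 2.44 and 2.67 CPM in other MO/MPs, and a single cell held 87.5% of its 8 Ctrl UMIs and another all 12 dKO UMIs. The dendritic list was at 166 and 170 CPM in members, against 170 and 209 CPM in other MO/MPs. At least 3 neutrophil lineage or dendritic genes were found in 15 of the 85 Ctrl and 6 of the 42 dKO members, against 116 of the 1344 Ctrl and 39 of the 1070 dKO MO/MPs that passed the rule. In the 2 Ctrl members highest in dendritic genes, singled out after their values were seen, that list was at 2014 and 1981 CPM and the MHC II panel at 27699 and 35258 CPM, with the C1q panel at 0. The dKO member highest in that list had it at 1499 CPM, the MHC II panel at 80166 CPM, and the C1q panel and Csf1r at 0. The limits for atypical cells did not use the dendritic list, so such members were not counted among them. Among the lists' defining genes, Pdgfra, Cdh5, Cd3e and Cd79a were at 0 by the rule. Results that rest on the atypical cells are given below with and without them.

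**Figure D1:**
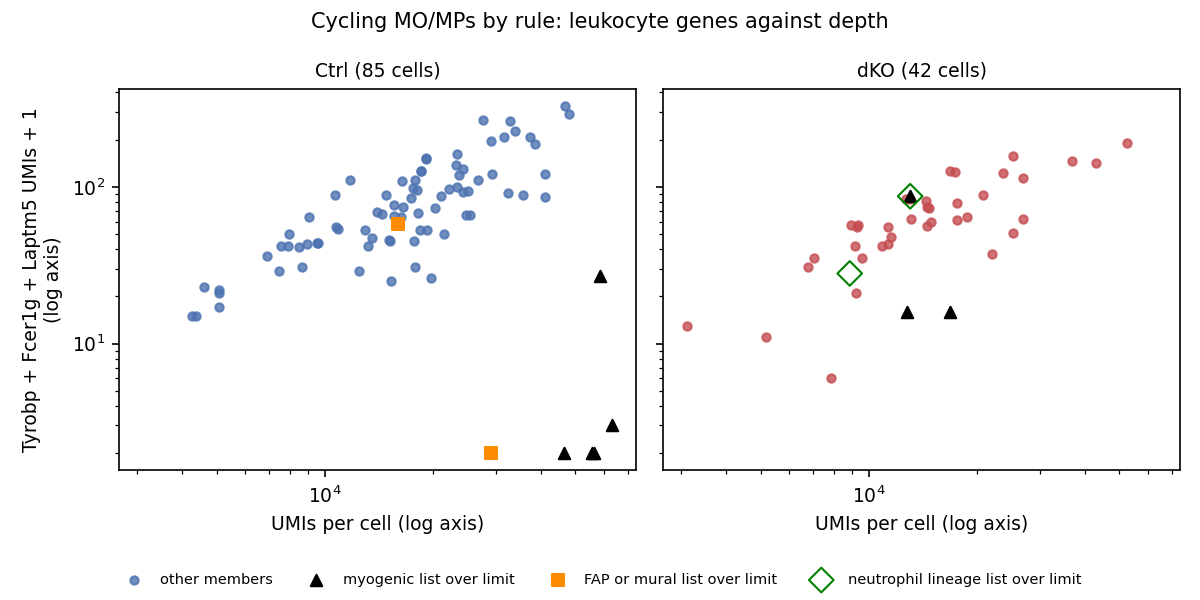
Summed UMIs of Tyrobp, Fcer1g and Laptm5, plus 1, against UMIs per cell in the 85 Ctrl (blue circles) and 42 dKO members (red circles), both axes logarithmic. Symbols mark members over the limit for myogenic genes (black triangles), FAP or mural genes (orange squares) and neutrophil lineage genes (green diamonds). The 2 lower dKO triangles also passed the FAP and mural limits. The 5 Ctrl members with at most 2 such UMIs lie apart along the lower edge.

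The members made up 6.32% (5.08 to 7.76) of the 1344 Ctrl MO/MPs and 3.93% (2.84 to 5.27) of the 1070 dKO MO/MPs. The dKO share was lower by −2.40 percentage points (−4.15 to −0.61), an interval that leaves out 0 for counting error alone. Without the atypical cells the shares were 6.13% (4.87 to 7.59) and 3.68% (2.61 to 5.01), with a difference of −2.45 points (−4.21 to −0.67). Of all cells with at least 500 genes, members were 1.96% in Ctrl and 1.26% in dKO. Depth moved with this comparison. When every cell was thinned to 3000 UMIs before the rule was applied, the shares were 3.10% (2.17 to 4.29) and 2.44% (1.54 to 3.68), a difference of −0.66 points (−2.10 to 0.84) whose interval holds 0. Removing the cells of highest doublet score took 7 Ctrl and 17 dKO members and left a dKO share of 2.46%. The part of depth and of doublets in the difference was not tested.

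Cells fell away steeply with the number of cell cycle genes and rose again at the end of the scale. Of the Ctrl MO/MPs, 982 had 0 of the 6 genes, 236 had 1 and 41 had 2, followed by 18, 15, 12 and 40 with 3 to 6. The dKO counts were 860, 150, 18, 7, 12, 7 and 16 in the same order. All 6 genes were found in 47.1% of Ctrl members (40 of 85) and 38.1% of dKO members (16 of 42), a difference of −8.96 points (−25.8 to 9.28). Just outside the threshold, cells with 2 genes held 190 and 182 CPM of the 6 genes in Ctrl and dKO. Just inside it, cells with 3 genes held 440 and 586 CPM. Granule genes held out 82 Ctrl cells, of which 13 had at least 3 cell cycle genes (15.9%, 8.72 to 25.6), and 28 dKO cells, of which 1 did (3.57%, 0.0904 to 18.3).

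**Figure D2:**
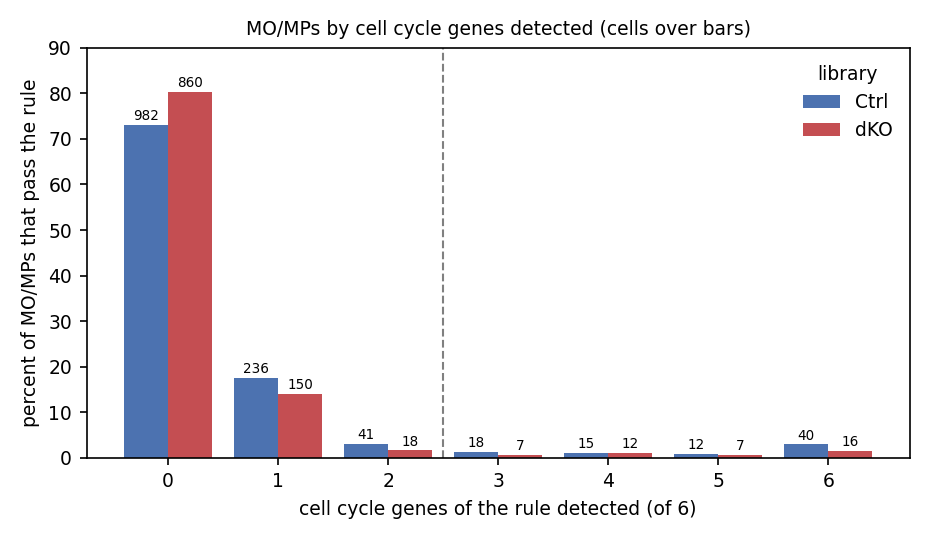
Percent of the MO/MPs that passed the rule (y axis) by the number of the 6 cell cycle genes detected (x axis), for Ctrl in blue and dKO in red, with cell numbers over the bars and a dashed line at the threshold for members. Both libraries have most cells at 0 and a second rise at 6, with 40 Ctrl and 16 dKO cells.

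The 6 genes that chose the members cover the step from S phase to mitosis. Mki67, which coats mitotic chromosomes, was at 363 CPM (655 UMIs) in Ctrl members and 532 CPM (365 UMIs) in dKO members. Per cell it ran from 0 to 39 UMIs with a median of 6 in Ctrl, and from 0 to 34 with a median of 6 in dKO. Top2a, the topoisomerase that untangles sister chromatids, was at 423 and 368 CPM, with 0 to 57 UMIs per Ctrl cell and 0 to 25 per dKO cell. Birc5, the survivin subunit of the chromosomal passenger complex, was at 320 and 334 CPM. Ube2c, the ubiquitin carrier of the anaphase-promoting complex, was at 375 and 371 CPM. The S phase and mitotic cyclin Ccna2 was at 137 and 114 CPM and its partner kinase Cdk1 at 123 and 99.0 CPM. By construction other MO/MPs held none of these. CPM values compare a gene between cells, and are not used here to rank genes against each other.

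Of the 5638 genes with at least 50 UMIs in members, 380 were at least 2-fold higher in members than in other MO/MPs of both libraries (6.74%) and 44 at least 2-fold lower in both (0.78%). The contrast is the 1 that the rule cut, so these and the following values describe the members and test nothing. The median gene differed by a log2 of 0.11 in Ctrl and 0.10 in dKO. Outside the rule's genes, the 10 with the highest ratios were Nek2, Hmmr, Plk1, Shcbp1, Pimreg, Pbk, Prr11, Spag5, Pclaf and Cenpf. Nek2, a kinase that splits the centrosomes, had 41 UMIs in Ctrl members and 15 in dKO members against 0 in other MO/MPs, so it was at least 65.1-fold and 49.2-fold higher. Pclaf, a partner of the PCNA clamp, was at 286 and 341 CPM against 1.63 and 0.889 CPM, a 176-fold and 383-fold difference. Cenpf, a kinetochore protein, was at 156 and 141 CPM against 0.930 and 0.889 CPM, 167-fold and 159-fold higher. For the mitotic kinase Plk1, 70 and 33 UMIs stood against 1 UMI in each library's other MO/MPs.

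Genes of mitosis were higher in members. The kinesin list, motors that move chromosomes and cut the cell, was 51.5-fold higher in Ctrl members (39.9 to 67.7) and 53.7-fold in dKO members (40.7 to 71.7), and all 10 of its genes with at least 20 UMIs were at least 2-fold higher in both. Kif11, the motor that pushes spindle poles apart, was at 80.9 and 103 CPM against 1.16 and 1.33 CPM. The kinetochore list was 11.7-fold and 14.8-fold higher (23 of 24 genes in each library). The spindle and cytokinesis list was 8.30-fold and 9.31-fold higher (23 of 23). Within it Stmn1, a microtubule destabiliser, was at 879 and 1095 CPM against 31.5 and 24.3 CPM. Mitotic kinases and the anaphase-promoting complex were 6.22-fold and 6.15-fold higher (24 of 25). There Ccnb2, a mitotic cyclin, was at 122 and 130 CPM against 0.930 and 0.593 CPM. Condensin and cohesin subunits were 3.19-fold and 3.89-fold higher (13 and 14 of 16).

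Genes of DNA copying were also higher. The origin licensing list was 5.05-fold higher in Ctrl members (4.69 to 5.43) and 5.74-fold in dKO members (5.19 to 6.34), with 16 and 15 of 17 genes at least 2-fold higher. Mcm5, a subunit of the replicative helicase, was at 69.8 and 103 CPM against 8.02 and 6.52 CPM. Replication fork genes were 3.27-fold and 4.11-fold higher (26 of 28 in each). Among them Pcna, the sliding clamp, was at 274 and 319 CPM against 104 and 93.2 CPM. Nucleotide supply was 4.01-fold and 3.46-fold higher (13 and 12 of 17). Rrm2, the small subunit of ribonucleotide reductase, was at 93.1 and 80.1 CPM against 1.05 and 0.889 CPM. DNA repair genes were 5.94-fold and 6.34-fold higher (12 and 11 of 13).

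The replication histones were 8.02-fold and 6.38-fold higher (17 of 18 genes in each library). Hist1h1b, a linker histone, was at 306 and 300 CPM against 3.72 and 2.81 CPM. Per cell the histone list ran from 0 to 10976 CPM in Ctrl, with 4 members at 0, and from 0 to 9079 CPM in dKO, with 3 at 0. Many replication histone messages lack a poly(A) tail, so the priming used here captures them in part only. Several histone genes are near copies of each other, and their separate counts are uncertain. The chromatin packing list was 3.55-fold and 3.703-fold higher, with the histone variant H2afz at 2541 and 2447 CPM. G1/S control genes, the cyclin D and E kinases and E2F factors, were 2.13-fold and 1.61-fold higher, with 11 of 19 genes at least 2-fold higher in each library.

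Monocyte and macrophage genes took a smaller part of the members' UMIs than of other MO/MPs' UMIs. The macrophage identity list stood at 0.614 (0.603 to 0.625) of its other MO/MP level in Ctrl and 0.606 (0.588 to 0.624) in dKO, or 0.736 and 0.630 without the atypical cells. Per cell it gave 154 and 110 UMIs in members against 104 and 87.0. The rule's 5 MO/MP genes, at 0.660 and 0.672 of the other MO/MP level, gave 31.9 and 26.7 UMIs per member against 19.96 and 19.1. Complement C1q genes were at 0.542 and 0.498 of the other level, and chemokine genes of the CCL family at 0.567 and 0.621. The Spp1 list was the exception at 1.04 and 0.969, and without the atypical cells at 1.22 and 1.04. In the ratios without atypical cells here and in the next paragraph, those cells were left out of the members only. Other MO/MPs kept their own cells over the same limits. Lyz2, the lysozyme of myeloid cells, was at 2499 and 1708 CPM against 4228 and 3034 CPM.

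Among single genes the 10 lowest in members were Il10, Selenop, Lyz1, Clec4e, Apoe, Ednrb, Ly6c2, Cebpa, Fxyd2 and Ccl7. Apoe, the lipid carrier that macrophages secrete, was at 5276 and 3440 CPM against 15458 and 15197 CPM, a ratio of 0.341 and 0.226. Selenop, a secreted selenium carrier, had ratios of 0.307 and 0.268. Ly6c2, a surface protein of classical monocytes, had ratios of 0.345 and 0.327, and the myeloid factor Cebpa 0.356 and 0.205. The CDK inhibitor list was at 1.20 and 1.33, and at 0.900 and 1.29 without the atypical cells, with its genes unequal. Cdkn2c was 5.13-fold and 6.22-fold higher and Cdkn3, a phosphatase of mitotic cells kept on that list, 44.8-fold and 41.8-fold higher. Cdkn1b, which holds resting cells in G1, was at 0.819 and 0.876 of the other MO/MP level.

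**Figure D3:**
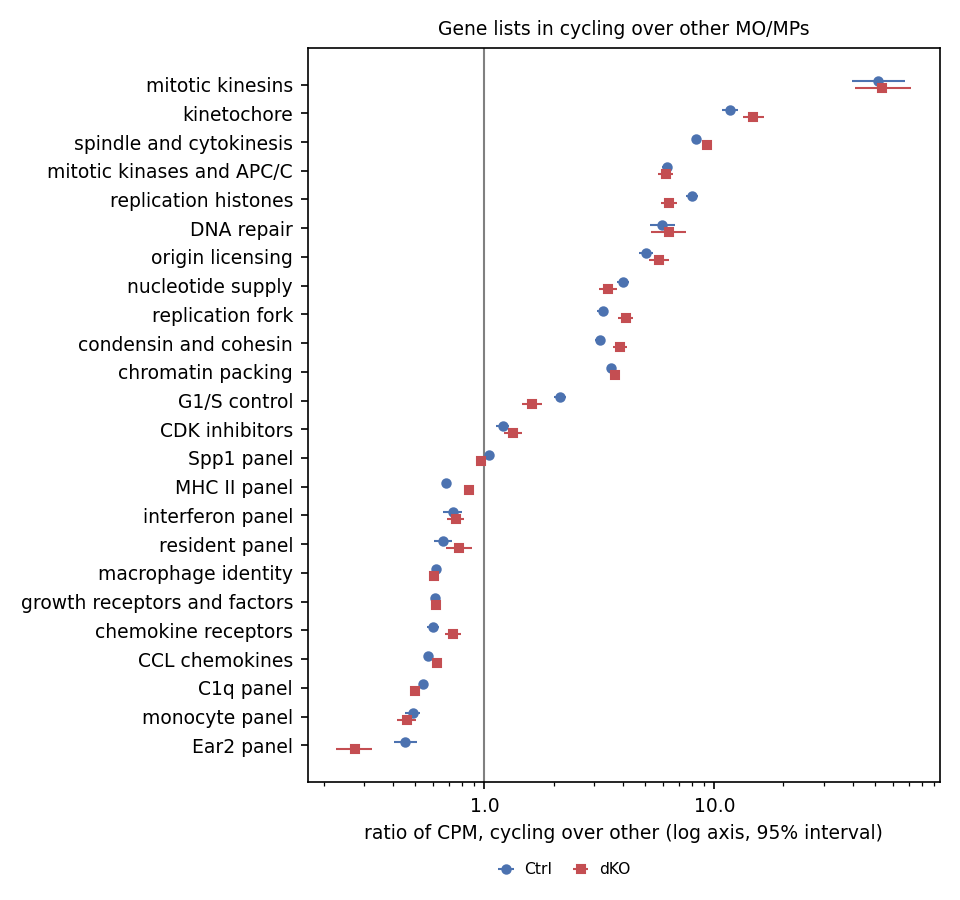
Ratio of the CPM of each gene list in members over other MO/MPs on a log axis, with 95% counting intervals, for Ctrl in blue and dKO in red. Lists of mitosis and DNA copying lie right of 1, from 1.61 for G1/S control in dKO to 53.7 for kinesins, and the macrophage lists other than the Spp1 list lie left of 1 in both libraries.

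The promoters of genes on the functional lists were read from RefSeq (build GRCm38.p6), from 250 bases before to 50 bases after the start of each gene. Motifs known from cell cycle promoters were searched on both strands. These were the CHR element (TTTGAA or TTTAAA), the CCAAT box (CCAAT) and an E2F site (TTTGGCGC, TTTCCCGC, TTTCGCGC or TTTGCCGC). Top2a and Ccnb2 are shown for the mitotic genes and Mcm5 for the licensing genes, with matches in capitals, 5′ to 3′ on the gene's strand. Top2a belongs to the rule's 6 cell cycle genes, so its higher level in members was set by the choice of cells. Top2a lies at chr11:99024140-99024439 on the minus strand with 2 CHR and 6 CCAAT matches, Ccnb2 at chr9:70421505-70421804 on the minus strand with 2 and 3, and Mcm5 at chr8:75109259-75109558 on the plus strand with 1 CHR, 3 CCAAT and 2 overlapping E2F matches.
Top2a: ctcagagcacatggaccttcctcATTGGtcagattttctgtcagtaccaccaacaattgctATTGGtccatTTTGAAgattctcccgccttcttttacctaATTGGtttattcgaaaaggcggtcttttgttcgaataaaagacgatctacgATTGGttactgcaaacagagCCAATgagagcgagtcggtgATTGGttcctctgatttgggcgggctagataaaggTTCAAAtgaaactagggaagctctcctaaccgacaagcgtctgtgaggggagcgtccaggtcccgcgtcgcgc
Ccnb2: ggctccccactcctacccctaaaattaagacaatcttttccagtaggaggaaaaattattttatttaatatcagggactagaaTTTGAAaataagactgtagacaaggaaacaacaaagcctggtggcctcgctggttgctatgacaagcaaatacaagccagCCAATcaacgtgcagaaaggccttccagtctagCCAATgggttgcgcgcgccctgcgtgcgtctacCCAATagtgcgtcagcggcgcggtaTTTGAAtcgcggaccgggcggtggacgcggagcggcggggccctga
Mcm5: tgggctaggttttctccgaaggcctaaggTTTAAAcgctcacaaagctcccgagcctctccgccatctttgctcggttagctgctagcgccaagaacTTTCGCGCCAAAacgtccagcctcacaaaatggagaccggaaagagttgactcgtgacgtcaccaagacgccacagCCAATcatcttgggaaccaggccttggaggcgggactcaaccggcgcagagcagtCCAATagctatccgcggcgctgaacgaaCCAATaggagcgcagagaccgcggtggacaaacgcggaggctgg
Of 27018 promoters, 27.8% held a CHR match, 37.9% a CCAAT match, 10.9% both and 2.32% an E2F match. In the kinesin list 83.3% of the 12 matched promoters held a CHR match and 58.3% both. In the spindle list of 18 the shares were 72.2% and 61.1%, in the mitotic kinase list of 21 they were 52.4% and 47.6%, and in the kinetochore list of 21 they were 52.4% and 42.9%. E2F matches were in 57.1% of the 14 licensing promoters, 25.0% of the 24 replication fork promoters, 16.7% of the kinesin, 9.52% of the kinetochore and 5.88% of the 17 nucleotide supply promoters, and 0 of the mitotic kinase and spindle promoters. A CHR match was in 42.9% of the licensing, 23.5% of the nucleotide supply and 8.33% of the replication fork promoters, and both CHR and CCAAT in 28.6%, 5.88% and 4.17%. A CCAAT match, with or without CHR, was found in 71.4%, 52.9% and 58.3% of these, and in 66.7% to 81.0% of the promoters of each mitotic list. Macrophage identity promoters, 8 of which matched, held CHR in 37.5% and E2F in 0. These are matches of letters and no measure of binding.

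The balance of S phase against G2/M genes varied between members. The rule's genes act from late S phase to mitosis, so a lean to G2/M is set in part by the choice of cells, and the G2/M lists were also above the S lists in other MO/MPs, at 992 against 837 CPM in Ctrl and 965 against 803 CPM in dKO. UMIs of the licensing, fork and nucleotide lists were set against those of the mitotic kinase, kinetochore, kinesin and spindle lists in each cell, with the rule's genes left out. S genes outnumbered G2/M genes in 7 of 85 Ctrl members (8.24%, 3.38 to 16.2) and 1 of 42 dKO members (2.38%, 0.0603 to 12.6). The S share of these UMIs ran from 7.97% to 60.8% with a median of 22.1% in Ctrl, and from 5.53% to 57.1% with a median of 21.5% in dKO. In 17 Ctrl and 8 dKO members it lay within 10 points of even, so the split marks a range and not a cell type. Without the abundant tubulins Tubb5, Tuba1b and Tubb4b and Stmn1, S genes led in 31.8% and 23.8% of members. Replication histones, which the split did not use, were at 1467 CPM in the 7 Ctrl members on the S side and 1643 CPM in the other 78, and at 69.2 CPM in the 1 dKO member on that side against 1474 CPM in the other dKO members.

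Cells rich in S genes were also found outside the rule. At least 20 S genes were detected in 53 Ctrl members and 17 dKO members, and in 38 Ctrl and 19 dKO MO/MPs with fewer than 3 of the 6 cell cycle genes. The median number of S genes was 32.5 and 30.5 in members with all 6 genes, and 5 and 4 in cells with 0 of them. The members therefore do not hold every MO/MP with many S phase genes.

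Members were spread over the macrophage states of this muscle. A cell carried a state if at least 60% of that panel's genes had a UMI after thinning to 3000 UMIs, and a cell could carry several. Cells under 3000 UMIs were left out here, which kept 841 Ctrl and 727 dKO cells of the other MO/MPs. The C1q panel, complement genes of mature macrophages with Fcgr4, was carried by 57.6% of Ctrl members (46.4 to 68.3) and 52.4% of dKO members (36.4 to 68.0), against 68.3% and 70.4% of other MO/MPs. The Spp1 panel, genes of lipid-loaded macrophages such as Gpnmb, Fabp5 and Trem2, was carried by 48 of 85 Ctrl members and 21 of 42 dKO members, and by 58.4% and 50.2% of other MO/MPs. The MHC II panel was carried by 38.8% and 54.8% of members, against 50.4% and 56.4%. With the atypical cells left out, members carried the C1q, Spp1 and MHC II panels in 61.5%, 60.3% and 42.3% of Ctrl cells and 19, 21 and 23 of 38 dKO cells. Members carried 2 or more panels in 51 Ctrl and 26 dKO cells, and 35 Ctrl and 13 dKO members carried both the Spp1 and the C1q panel.

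The monocyte panel of Ly6c2, Chil3, Vcan, Plac8 and Ccr2 was carried by 3.53% of Ctrl members (0.734 to 9.97) and 4.76% of dKO members (0.582 to 16.2), against 11.7% and 19.7% of other MO/MPs. With the atypical cells left out it was carried by 3 of 78 Ctrl members (3.85%, 0.800 to 10.8) and 1 of 38 dKO members (2.63%, 0.0666 to 13.8). Read the other way, 2.44% of Ctrl cells with the monocyte panel were members (3 of 123, 0.506 to 6.96) and 1.18% of dKO cells (2 of 169, 0.144 to 4.21). Without the granule gene step of the rule the Ctrl share was 4.83% (1.96 to 9.69), and without the atypical cells the dKO share was 0.629% (0.0159 to 3.45). Among carriers of the Spp1 panel 6.84% (5.08 to 8.96) and 4.39% (2.74 to 6.64) were members, and among carriers of the C1q panel 5.94% and 3.38%. The panel of resident macrophages, with Folr2, Cbr2 and Lyve1, gave 8.62% (5 of 58) and 5.36% (3 of 56). The Ear2 panel gave 1 of 27 in Ctrl and 0 of 24 in dKO, where the exact interval reaches 14.2%. The intervals of all of these panels overlapped within a library.

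**Figure D4:**
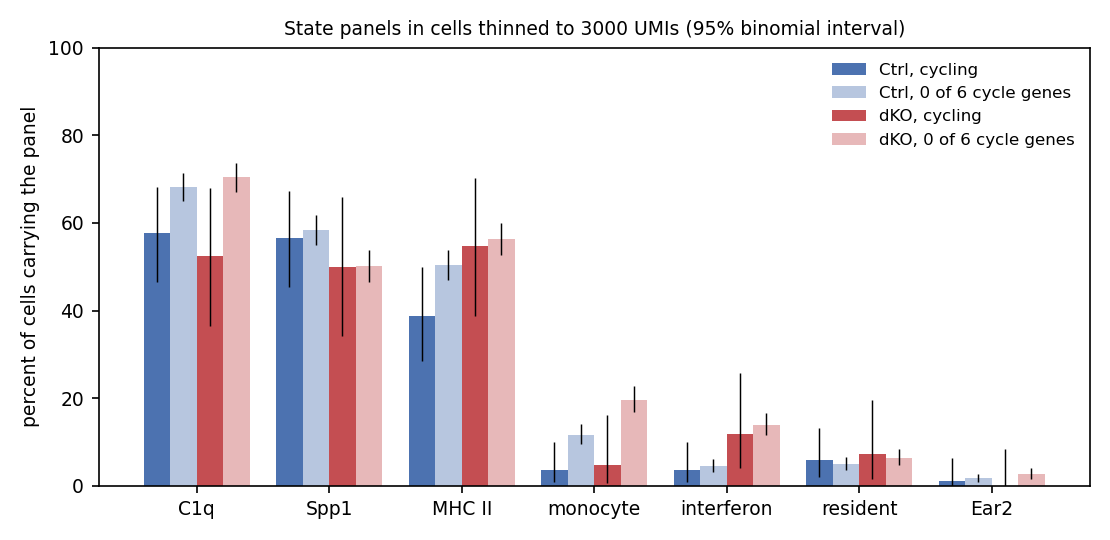
Percent of members (dark bars) and of other MO/MPs (light bars) that carry each state panel after thinning to 3000 UMIs, for Ctrl in blue and dKO in red, with 95% binomial intervals. Members sit at 57.6% and 52.4% for the C1q panel and at 3.53% and 4.76% for the monocyte panel, where other MO/MPs reach 11.7% and 19.7%.

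Between the libraries, dKO members had higher interferon genes and CCL chemokines and lower Spp1 panel genes than Ctrl members in summed UMIs. Of the 5638 genes, 149 were at least 2-fold higher in dKO members (2.64%) and 164 at least 2-fold lower (2.91%), and the median log2 ratio was −0.01. Without the atypical cells, 97 of the 149 and 71 of the 164 were still past 2-fold, some of them with fewer than 50 UMIs left. The atypical cells held over 50% of the Ctrl UMIs for 85 of the 164 lower genes, and over 50% of the dKO UMIs for 22 of the 149 higher genes. The cells were not chosen on the genes that follow, except where the 11 genes of the rule are named.

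The S and G2/M lists were compared between the libraries in sum and by list. The G2/M lists together were at 1.08 of the Ctrl level in dKO (1.05 to 1.12), with 50 genes higher and 31 lower of 81, and the S lists at 1.05 (0.998 to 1.10), with 34 higher and 28 lower of 62. Without the atypical cells they were at 1.12 (1.09 to 1.16) and 1.14 (1.09 to 1.20), with 58 and 40 genes higher, and in other MO/MPs at 0.973 and 0.960. Nucleotide supply was at 0.869 (0.795 to 0.950) and kinesins at 1.265 (1.11 to 1.44), or 1.00 and 1.28 without the atypical cells. G1/S control genes were at 0.830 (0.746 to 0.922), and at 1.07 (0.950 to 1.20) without the atypical cells. The rule's MO/MP genes were at 1.09, and at 0.950 without the atypical cells.

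Interferon-inducible genes were higher in dKO members. In sum they stood at 668 CPM in Ctrl members and 1857 CPM in dKO members, a ratio of 2.78 (2.57 to 3.01), or 2.34 (2.16 to 2.54) without the atypical cells. All 18 genes with at least 20 UMIs were higher in dKO, 14 of them at least 2-fold, with a median log2 of 1.48. All 18 were also higher without the atypical cells. Per cell the sum ran from 0 to 7691 CPM with a median of 269 CPM in Ctrl, and from 0 to 29283 CPM with a median of 1104 CPM in dKO, so the cells of the libraries overlapped widely. A single dKO cell gave 21.0% of the dKO sum. Rsad2, an antiviral enzyme, was at 107 CPM (194 UMIs) in Ctrl and 427 CPM (293 UMIs) in dKO, a log2 of 1.99 (1.72 to 2.26). Isg15, a ubiquitin-like modifier, had a log2 of 1.79 (1.47 to 2.12), the factor Irf7 1.45 (1.03 to 1.88) and Ifit3 1.83 (1.25 to 2.41).

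Other MO/MPs showed the interferon gap too. There the same list had a dKO over Ctrl ratio of 2.75, and members stood at 0.627 of other MO/MPs in Ctrl and 0.634 in dKO. The chemokine Cxcl10 had a log2 of 0.53 in members (0.15 to 0.90), where a single cell held 56.8% of the dKO UMIs, and of 1.35 in other MO/MPs.

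CCL chemokines were at 2432 CPM in Ctrl members and 4004 CPM in dKO members, a ratio of 1.65 (1.57 to 1.73), and 1.37 (1.30 to 1.44) without the atypical cells. All 10 genes were higher in dKO, 4 of them at least 2-fold, with a median log2 of 0.62, and 8 were higher without the atypical cells. In other MO/MPs the list had a ratio of 1.502 (1.48 to 1.52). Ccl6 and Ccl9, abundant macrophage chemokines, had log2 ratios of 0.60 (0.48 to 0.72) and 0.47 (0.34 to 0.60). Ccl8, a ligand that draws monocytes, had 85 UMIs in 13 Ctrl cells and 354 UMIs in 14 dKO cells, a log2 of 3.45 (3.11 to 3.81), and a single cell held 48.9% of the dKO UMIs. In other MO/MPs its log2 was 1.22. Ccl5, a chemokine for T cells and monocytes, had 5 and 25 UMIs, with 88.0% of the dKO UMIs in 1 cell. The chemokine receptor list was at 1.305 of the Ctrl level in dKO members (1.19 to 1.44), with 5 of 7 genes higher, and at 1.13 (1.02 to 1.24) without the atypical cells, with 4 of 7 higher. Lower among them were Ccr2, the receptor of entering monocytes, at a log2 of −0.35 (−0.69 to −0.03) and Cx3cr1 at −0.79 (−1.28 to −0.33).

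Summed over members, the Spp1 panel was lower in dKO. It stood at 7528 CPM in Ctrl and 5022 CPM in dKO, a ratio of 0.667 (0.642 to 0.693), and 0.610 (0.587 to 0.633) without the atypical cells, with 5 of 5 genes lower and a median log2 of −0.59. Gpnmb, a glycoprotein of lysosome-rich macrophages, had a log2 of −0.92 (−1.07 to −0.78) and the fatty acid carrier Fabp5 of −0.59 (−0.69 to −0.49). The lipid receptor Trem2 was at −0.40 (−0.58 to −0.23). Spp1 itself, the matrix protein osteopontin, was at −0.61 (−0.70 to −0.52). A single dKO cell held 61.5% of its dKO UMIs, and without the top cell of each library the log2 was −1.66. In other MO/MPs the panel had a ratio of 0.718. Without the cells of highest doublet score the ratio in members was 0.920 (0.882 to 0.959). Per cell the Spp1 panel had nearly equal medians, 2033 CPM in Ctrl members and 2023 CPM in dKO members. Its range was 0 to 59933 CPM in Ctrl and 0 to 23342 CPM in dKO.

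The MHC II panel was higher in dKO members at 1.501 (1.46 to 1.54), and at 1.33 (1.29 to 1.37) without the atypical cells, with 4 of 5 genes higher. Both ratios keep members rich in dendritic genes, because the limits for atypical cells did not use that list. Without members holding at least 3 neutrophil lineage or dendritic genes the ratio was 1.64 (1.59 to 1.70). The part of dendritic-like members in the ratio was not tested. Cd74, the invariant chain, had a log2 of 0.47 (0.41 to 0.53) and H2-Ab1 of 0.75 (0.66 to 0.84). Per cell the panel ran from 0 to 74712 CPM with a median of 337 CPM in Ctrl, and from 0 to 80166 CPM with a median of 3301 CPM in dKO. In other MO/MPs the ratio was 1.20. The C1q panel was at 1.00 (0.960 to 1.05), and at 0.833 (0.796 to 0.871) without the atypical cells. The monocyte panel was at 1.42 (1.26 to 1.61) and the resident panel at 1.26 (1.09 to 1.47), and both turned below 1 without the atypical cells, at 0.946 (0.821 to 1.09) and 0.942 (0.800 to 1.11).

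Single inhibitors and drivers of the G1/S step are given here with their cells. Cdkn1a, the p21 inhibitor that p53 induces, was at 283 CPM (510 UMIs, 77 cells) in Ctrl members and 650 CPM (446 UMIs, 37 cells) in dKO members. Its log2 was 1.20 (1.01 to 1.39), 1.34 without the atypical cells and 0.53 in other MO/MPs. Cdkn1c and Cdkn2a had 159 and 71 UMIs in Ctrl members against 1 and 1 in dKO members, and the atypical cells held 97.5% and 97.2% of the Ctrl UMIs. Ccnd1, a cyclin D of G1, had a log2 of −0.62 (−1.01 to −0.26) that became 0.70 (0.22 to 1.18) without the atypical cells, which held 69.8% of its Ctrl UMIs. Csf2rb, a receptor chain for GM-CSF, was at 0.72 (0.44 to 0.99).

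**Figure D5:**
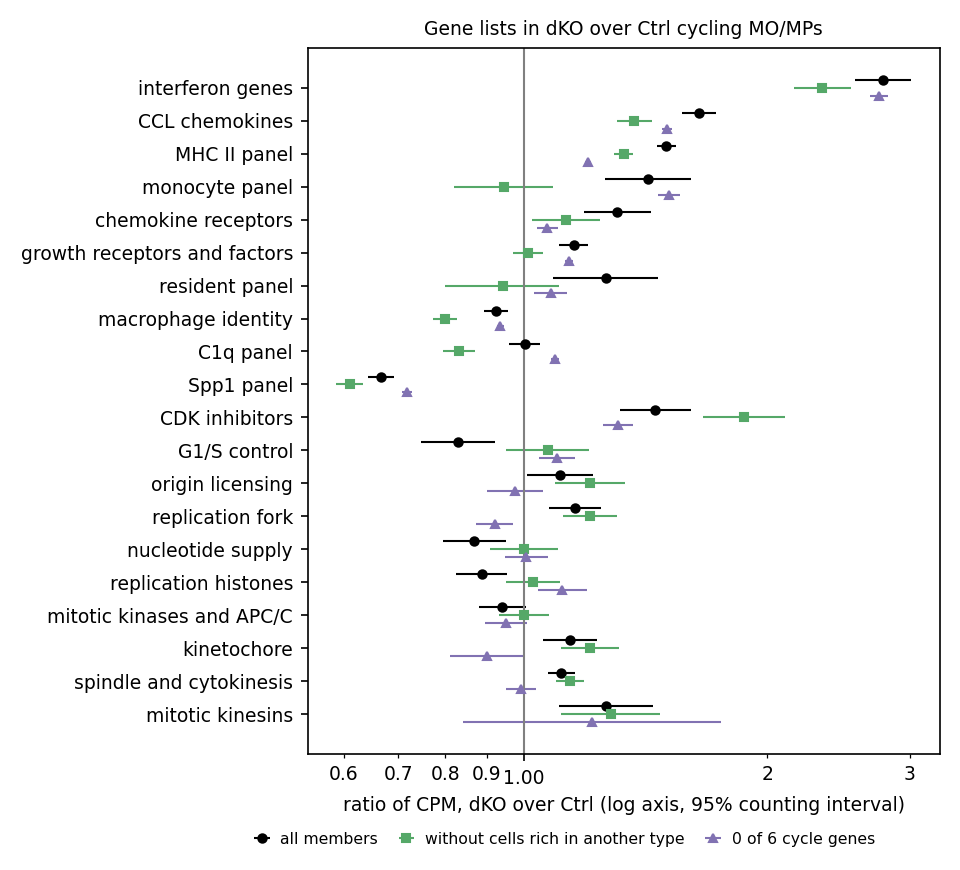
Ratio of the CPM of the gene lists named on the y axis in dKO over Ctrl on a log axis, with 95% counting intervals, for all members (black circles), for members without the atypical cells (green squares) and for other MO/MPs (purple triangles). The lists of other cell types and the short interferon panel are not plotted. Of the lists plotted, interferon genes lie farthest right at 2.78, 2.34 and 2.75, the Spp1 panel farthest left at 0.667, 0.610 and 0.718, and the monocyte and resident panels cross 1 when the atypical cells are left out.

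The 10 genes highest in dKO members were Ccn1, Ccl8, Acod1, Tnnc2, Mylpf, Plk2, Rgs1, Ifit1, Mx1 and Cfb, detected in 11.9% (Mylpf) to 57.1% (Plk2) of the dKO members. Acod1, which makes itaconate in activated macrophages, had 19 UMIs in 11 Ctrl cells and 75 UMIs in 6 dKO cells, a log2 of 3.38 (2.63 to 4.18), and 1.24 in other MO/MPs. A single cell held 49.3% of the dKO UMIs of Acod1, and a single cell held 50.8% of those of Plk2. Rgs1, a regulator of chemokine receptor signals, had 260 and 582 UMIs, a log2 of 2.56 (2.34 to 2.77), with 40.03% of the dKO UMIs in 1 cell. The antiviral genes Ifit1 and Mx1 had log2 ratios of 2.24 (1.55 to 2.95) and 2.17 (1.47 to 2.90). The muscle genes Tnnc2 and Mylpf rested on the atypical cells, which held 90.2% and 95.9% of their dKO UMIs, and without them their log2 went from 2.98 to 0.73 and from 2.76 to −1.48. Ccn1 had 83.3% of its 42 dKO UMIs in them, and its log2 went from 3.46 (2.45 to 4.63) to 3.03 (0.63 to 6.33) without them.

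The 10 lowest were Peg3, Lyz1, Map1b, Tubb2b, Hmga2, Cavin2, Sox4, Eno3, Rab34 and Cnn3. For all of them but Lyz1 the atypical cells held from 82.8% to 97.6% of the Ctrl UMIs. Peg3, an imprinted factor of muscle progenitors, had 71 UMIs against 0, at least 9.002-fold lower in dKO, with 95.8% of the Ctrl UMIs in those cells. Lyz1, a lysozyme gene next to Lyz2, had 101 UMIs in 24 Ctrl cells and 2 UMIs in 1 dKO cell, a log2 of −4.26 (−7.33 to −2.37), with 0% of the UMIs in atypical cells. In other MO/MPs its log2 was −0.10, and Lyz2 differed in members by −0.55 (−0.64 to −0.46). Lyz1 and Lyz2 are close copies, so reads may be split between them. When the naming rule was applied again without the atypical cells, 6 of the 10 higher genes (Acod1, Ccl8, Ifit1, Mx1, Plk2 and Rgs1) and 1 of the 10 lower genes (Lyz1) were named again. Tmem86a, a membrane protein gene, then entered the lower list with 120 and 12 UMIs and a log2 of −2.10 (−3.09 to −1.24).

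Cycling FAPs, 58 cells in Ctrl and 46 in dKO chosen with the same 6 genes but with a UMI of the FAP receptor gene Pdgfra, are set beside the members. Kinesins stood at 466 and 458 CPM in cycling FAPs against 383 and 485 CPM in members, and the spindle list at 4737 and 5171 CPM against 4858 and 5408 CPM. Nucleotide supply was at 1498 and 1760 CPM in cycling FAPs and 1098 and 954 CPM in members, and G1/S control genes at 940 and 1146 CPM against 812 and 674 CPM. The 5 MO/MP genes, low in cycling FAPs by that choice, were at 7.66 and 4.35 CPM there and at 1503 and 1633 CPM in members. Cycling FAPs were deeper, with a median of 28065 and 32387.5 UMIs. No test of these differences was possible with 1 library per group.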

How the data were processed

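Droplet libraries (10x Chromium) of sorted hind limb muscle cells, 1 of Ctrl and 1 of dKO, were read as the UMI counts the authors deposited per gene and cell barcode, without normalization and with 24984 genes. The submitters' notes name Cell Ranger 7.0.0, Seurat 4.3.0 and build mm10, while the matrix headers name Cell Ranger 3.0.2. Which of these made the deposited counts was not given in the sources used here. Every barcode in the files held at least 500 UMIs, and depth per library and per member is given in the report. Cells enter no test as replicates.

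UMIs were summed over the members of a library and scaled to a total of 1000000 (CPM). Ratios of CPM carry exact conditional binomial intervals, shares carry exact (Clopper-Pearson) intervals and differences of shares Newcombe intervals, all at 95%. Genes entered the counts of 2-fold differences with at least 50 UMIs in members over both libraries, and entered list counts with at least 20. A gene at 0 was set to a floor of 3 UMIs per library. Named genes were those of the rule, 2 to 6 per list by UMIs or ratio, the 10 with the highest and lowest ratios between members and other MO/MPs, taking the less extreme library, and the 10 highest and lowest between dKO and Ctrl members among genes in at least 10% of the members of the higher library. Genes outside these were named after their values were seen. The members and the lists were chosen with earlier results of these data known. Interferon, chemokine and Spp1 lists in particular are not independent evidence of their directions.

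Doublets were scored with Scrublet in scanpy 1.11.5 (30 components, 7.5% expected). Its own threshold marked 8 of 4335 and 20 of 3329 cells and was taken as not having worked for Ctrl, so doublets were kept, and leaving out the 7.5% of highest score was an alternative. Other alternatives were other limits on cell cycle genes, genes per cell and UMIs, thinning, scaling to the median gene, the mean of each cell's CPM, and leaving out top genes, top cells or cells rich in other types' genes. Calculations used Python 3.11.15, numpy 2.4.6, scipy 1.17.1 and pandas 2.3.3, and were tested on simulated data. Promoters came from RefSeq tables of GRCm38.p6, taking the first promoter listed for a gene.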

Additional observations from a re-analysis of the deposited data

Results flagged for a closer look

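For 4 of the lists of other cell types, the ratio of members over other MO/MPs pointed opposite ways in the libraries, and the difference was not tested because each group is 1 library. Neutrophil lineage genes were at 0.0361 of the other MO/MP level in Ctrl members and 21.2 in dKO members. A single dKO cell held 94.3% of the dKO UMIs of that list. Without the atypical cells, left out of the members only, the ratios were 0.0396 and 0.0413. Other MO/MPs kept their own cells over the limits, and those limits used the neutrophil lineage, mural and FAP lists. The lower ratios of these lists without those cells are therefore set in part by the choice of cells. Mural genes were at 0.238 in Ctrl and 5.76 in dKO, and at 0.0171 and 0.0913 without those cells. FAP genes were at 1.62 in Ctrl and 0.704 in dKO, and at 0.746 and 0.456 without them. Endothelial genes were at 0.532 and 1.98, and at 0.452 and 1.57 without them, from 12.7 and 43.7 CPM in members, and a single cell held 56.7% of the dKO UMIs.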

How the results depend on the processing

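No paired analysis was possible because each group is 1 library and no result comes from a replicated test. Intervals cover counting error only, PCR and pooling of mice add spread that these data cannot show, and depth and doublets move with some shares. Free RNA was not measured. Of the main values recomputed under another setting, 98 stayed within their interval or within 1.5 times a count and 61 moved. Of the others 124 stayed, 106 moved and 10 turned direction.

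The share of MO/MPs that cycle was 9.38% in Ctrl and 5.61% in dKO with at least 2 cell cycle genes, 4.99% in Ctrl with at least 4, 3.10% and 2.44% after thinning, 1.96% and 1.26% of all cells, and 2.46% in dKO without the cells of highest doublet score. The cycling share of Spp1 and C1q panel carriers was 2.67% and 1.78% in dKO without those cells, 4.84% and 4.24% in Ctrl with at least 4 genes, and by thinned cells 3.704% and 3.27% in Ctrl and 2.51% and 1.997% in dKO. S genes led in 0% of dKO members without cells with 3 neutrophil lineage or dendritic genes, and in 31.8% and 23.8% without the tubulins and Stmn1.

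The dKO over Ctrl ratio of interferon genes was 3.65 without the cells of highest doublet score, 3.27 with at least 4 genes, 3.11 without neutrophil lineage or dendritic cells, 3.39 as the mean of cells, 2.55 without its top gene and 2.34 without the atypical cells. For CCL chemokines it was 1.95 without high doublet scores, 1.74 without neutrophil lineage or dendritic cells, 1.78 without the granule gene step and 1.37 without the atypical cells. For the Spp1 panel it was 0.920, 0.785, 0.706, 0.515 and 0.610 without high doublet scores, with 4 genes, without neutrophil lineage or dendritic cells, as the mean of cells and without the atypical cells. For MHC II it was 1.20, 1.74, 1.64, 1.61 and 1.33 under the same settings, 1.60 without its top gene and 1.65 without the granule gene step.

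The C1q panel in members over other MO/MPs was 0.517 and 0.435 (Ctrl and dKO) without high doublet scores, 0.472 and 0.527 with 4 genes, 0.507 and 0.528 without neutrophil lineage or dendritic cells, 0.503 and 0.465 scaled to the median gene, 0.571 and 0.518 as the mean of cells, 0.511 in Ctrl without the granule gene step, 0.639 in Ctrl without the atypical cells in both cell sets, and 0.473 in dKO without its top gene. With at least 100 UMIs, 74 genes were 2-fold higher and 48 lower in dKO, and 237 higher and 29 lower in members. Scaled to the median gene 72 were lower in members. Without the atypical cells, with the minimum of 50 UMIs applied again to the remaining members, 66 were lower in dKO and 27 lower in members.

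Directions turned for the interferon panel in dKO members over other MO/MPs (1.07 without high doublet scores, 1.06 as the mean of cells), the Spp1 panel in Ctrl members over other MO/MPs (0.969 with 4 genes, 0.968 scaled to the median gene), and the Ear2 panel in dKO without its top gene (1.53). For dKO over Ctrl members, the monocyte panel turned to 0.997 without neutrophil lineage or dendritic cells, 0.738 without the granule gene step and 0.946 without the atypical cells. The rule's MO/MP genes turned to 0.950 and the resident panel to 0.942 without the atypical cells. For the Spp1 panel in dKO members over other MO/MPs, at 0.969 with an interval that holds 1, the ratio was 1.30 without high doublet scores, 1.06 with 4 genes and 1.05 without neutrophil lineage or dendritic cells. The cause was not tested. The settings without the granule gene step, the atypical cells or the tubulins were chosen after seeing the data.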

Other observations

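Growth factors and cytokines that act on FAPs and matrix, a list of 15 genes, stood in sum at 0.987 of the other MO/MP level in Ctrl members and 1.13 in dKO members. Gene by gene the median log2 was −0.59 and −0.30, and of 14 genes with at least 20 UMIs 2 and 3 were at least 2-fold lower in members and 0 at least 2-fold higher. Without the atypical cells, left out of the members only, the sum stood at 1.15 of the other MO/MP level in Ctrl and 1.19 in dKO. Tgfb1, a driver of matrix deposition, was at 256 CPM in Ctrl members and 245 CPM in dKO members, with a log2 of −0.07 (−0.33 to 0.19). Igf1, a growth factor for muscle, was at 138 and 100.5 CPM, a log2 of −0.46 (−0.87 to −0.07). Gdf15, a stress cytokine, was at 53.2 and 197 CPM, a log2 of 1.89 (1.498 to 2.28) that was 1.36 without the atypical cells and 0.18 in other MO/MPs. Il1b, an inflammatory cytokine, was at 278 and 482 CPM, a log2 of 0.79 (0.59 to 1.00), with 34.7% of the dKO UMIs in 1 cell.

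DNA repair genes together were at 0.990 of the Ctrl level in dKO members (0.842 to 1.16), an interval that holds 1, with 7 genes higher and 6 lower. Without the atypical cells the ratio was 1.13 (0.953 to 1.34), an interval that also holds 1, with 11 genes higher and 2 lower. Retnla, a macrophage gene of type 2 responses, had 281 UMIs in 11 Ctrl members and 84 UMIs in 4 dKO members, and 95.2% of the dKO UMIs were in a single cell.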
